A study of Rattus norvegicus with 18 samples.

Results

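The genes described here build and steer membrane vesicles: Rab GTPases and proteins named after them, SNARE proteins, the syntaxin-binding proteins and the exocyst. They were found by symbol, as probe sets with exactly 1 annotated symbol that names a Rab protein, a Vamp of the numbers 1 to 8, a syntaxin or syntaxin-binding protein, Snap23, Snap29 or Snap47, an exocyst subunit, Sec22 or Vti1. The rule found 101 genes with 169 probe sets, of 13810 genes named in this way and 31142 probe sets that are not controls. Low probe sets were left out: 146 probe sets, of 98 of these genes, reached a ratio of 1 on 4 or more of 9 arrays and were tested. Rab3il1, Rab43 and Stx11 did not pass and are not described further.

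Expression was measured in O4+ cells and A2B5+ cells, both sorted by flow cytometry from dissociated whole brain of male rats at postnatal day 7, with no treatment or genetic change named in the labels. The O4 antibody binds sulfatide and marks cells from the late progenitor stage of the oligodendrocyte lineage onward, and A2B5 binds gangliosides on earlier glial progenitors and on some neurons. Each of the 4 O4+ and 5 A2B5+ replicates came from a litter of 10 pups, so a replicate pools animals. Every replicate was measured on both an array A and an array B, 2 Affymetrix designs with different probe sets. The values are the authors' linear ratios, in which most probe sets have a median of exactly 1 over the 9 arrays and the rest a median below 1, so they were read here as comparing arrays for 1 gene and not 1 gene with another.

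Rab proteins are small GTPases that switch between a GDP-bound and a GTP-bound form and, in the GTP-bound form, recruit the motors and tethers that move and dock a vesicle. The exocyst is a tether that holds secretory vesicles at the plasma membrane. Fusion is then driven by SNARE proteins, with a Vamp on the vesicle pairing with syntaxin and Snap partners on the target membrane, under control of the syntaxin-binding proteins. Oligodendrocytes use this machinery to bring myelin proteins and lipids to a growing sheath.

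Markers fixed for the sorted cells and for other brain cell types gave the setting. All 11 tested markers of myelin and mature oligodendrocytes were higher in O4+ cells, by log2 differences of 3.44 to 6.95. Of 6 progenitor markers 2 were higher, Sox10 and Olig1. The other 4, Pdgfra, Cspg5, Cspg4 and Ptprz1, were lower, with log2 differences of -2.29 to -0.85. All 6 tested markers of dividing cells were lower, and so were all 8 of microglia, 6 of 8 of endothelial and mural cells and 6 of 9 of astrocytes and radial glia. Of 17 markers of neurons and neuroblasts 8 were lower and 4 higher. The mean log2 ratio of the neuron list was -0.39 to -0.12 on the O4+ arrays and -0.27 to 0.99 on the A2B5+ arrays, and that of the microglia list -1.46 to -0.07 on the O4+ arrays and -0.07 to 0.82 on the A2B5+ arrays. Ratios have no zero level, so absence of a marker cannot be read from them, and the part of other cell types in the differences below was not tested. In sorted bulk samples a change in the share of a cell type and a change of RNA per cell cannot be told apart.

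Trafficking genes were more often higher than lower in O4+ cells. Of the 98 tested genes 37 were higher in O4+ cells at a limma adjusted p under 0.05, or 37.8%, against 28.8% of all 11982 genes tested. Only 9 were lower, or 9.18%, against 17.8% of all genes. Without any overlap between O4+ and A2B5+ arrays were 32 of the higher genes, where 24.7% of all genes were, and 5 of the lower genes, where 13.1% of all genes were. The median log2 difference, O4+ minus A2B5+, was 0.37 for these genes and 0.14 for all genes. Among the higher genes 18 had a log2 difference of at least 1, and among the lower genes 4 had one of -1 or less. Of all 11982 genes, 1200 were higher and 1291 lower by that much.

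The array types differed in these shares. Of the 80 genes read from array A 34 were higher and 8 lower, or 42.5% and 10%, beside 33.7% and 15.8% of all genes read from it. Of the 18 read from array B 3 were higher and 1 lower, or 16.7% and 5.56%, beside 13.5% and 23.9%. The scale of the arrays also bears on the counts. On array A, which measured 80 of the 98 genes, the median log2 ratio of tested probe sets was 0.06 to 0.16 on the O4+ arrays and -0.12 to 0 on the A2B5+ arrays, a mean shift of 0.17. With each array centred on its median, 31 of the 98 genes were higher, against 18.7% of all genes, and 10 were lower, against 20.4% of all genes. The calls that ended on centring were those of Rab7a, Rab23, Rab25, Stx5, Stx17 and Exoc7, and Rab12, at -0.31 ± 0.15 uncentred, became a lower call at -0.48.

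**Figure D1:**
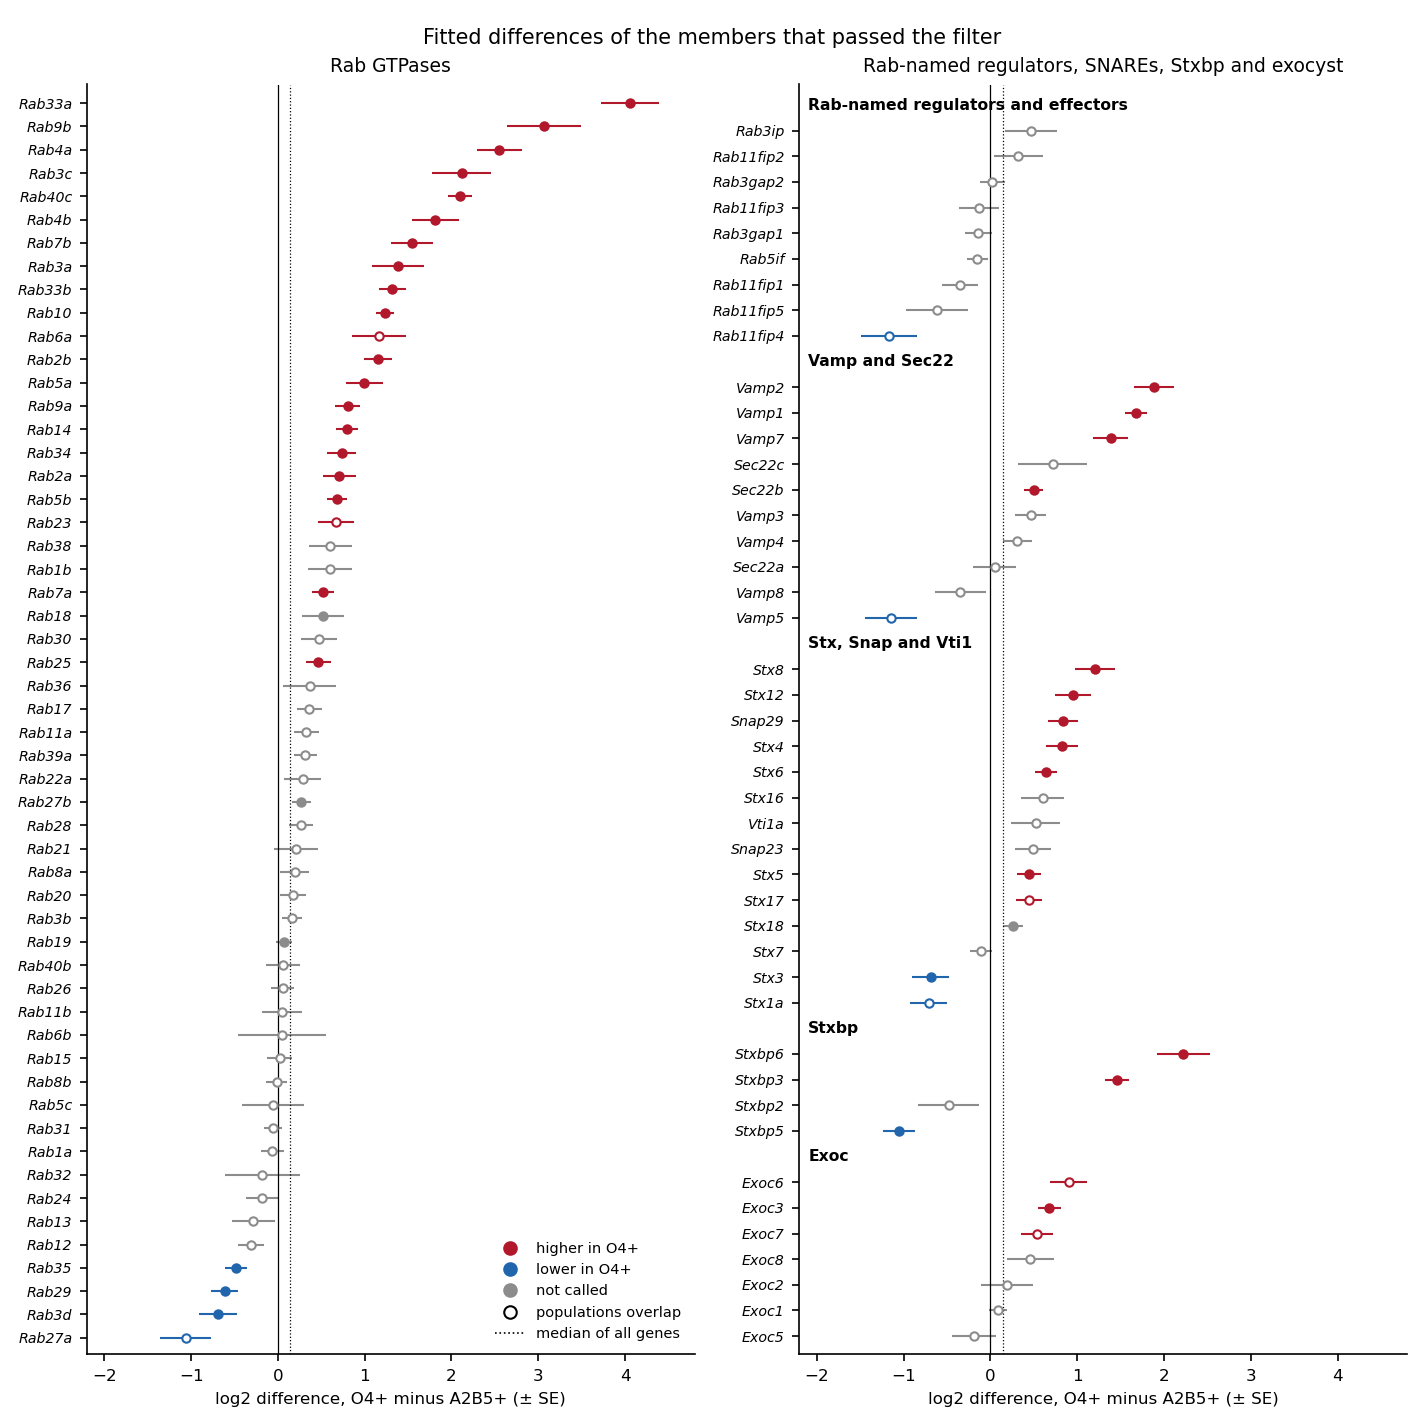
Fitted log2 differences (O4+ minus A2B5+, x axis, ± standard error, n = 4 and 5) of the 98 tested genes, with the 54 Rab GTPases on the left and the other roles on the right. Red marks the 37 genes higher and blue the 9 genes lower in O4+ cells, open circles mark genes whose populations overlap, and the dotted line is the median of all genes, 0.14. Rab33a reaches furthest to the right at 4.06, and no gene lies below -1.17.

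To show sequence beside these values, the 250 bases before the annotated start are printed for 4 genes whose populations did not overlap. With a matched promoter, they are the largest rise among the Rab GTPases, among the Vamp and Sec22 genes and among the syntaxin-binding proteins, and the one fall among the last of these. The sequences are from RefSeq, build GRCr8, 5′ to 3′ on the strand of the gene, and capitals mark every match of 4 short motifs on either strand.
Rab9b, chrX:105023873-105024122, minus strand: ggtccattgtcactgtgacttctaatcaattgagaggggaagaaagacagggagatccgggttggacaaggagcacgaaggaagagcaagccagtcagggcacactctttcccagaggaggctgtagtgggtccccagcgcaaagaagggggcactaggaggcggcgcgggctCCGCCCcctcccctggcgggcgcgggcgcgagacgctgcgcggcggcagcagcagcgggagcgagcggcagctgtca
Vamp2, chr10:54292539-54292788, plus strand: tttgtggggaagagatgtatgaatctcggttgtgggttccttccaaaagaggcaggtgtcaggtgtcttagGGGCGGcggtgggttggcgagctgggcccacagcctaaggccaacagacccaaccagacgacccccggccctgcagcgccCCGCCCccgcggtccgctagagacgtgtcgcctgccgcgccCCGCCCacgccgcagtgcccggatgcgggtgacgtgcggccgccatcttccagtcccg
Stxbp6, chr6:67884339-67884588, minus strand: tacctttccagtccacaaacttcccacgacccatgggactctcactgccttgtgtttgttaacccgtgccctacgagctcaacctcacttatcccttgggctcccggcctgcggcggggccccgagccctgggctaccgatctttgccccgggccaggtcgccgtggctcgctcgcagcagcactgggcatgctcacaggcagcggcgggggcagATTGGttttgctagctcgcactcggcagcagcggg
Stxbp5, chr1:6155529-6155778, minus strand: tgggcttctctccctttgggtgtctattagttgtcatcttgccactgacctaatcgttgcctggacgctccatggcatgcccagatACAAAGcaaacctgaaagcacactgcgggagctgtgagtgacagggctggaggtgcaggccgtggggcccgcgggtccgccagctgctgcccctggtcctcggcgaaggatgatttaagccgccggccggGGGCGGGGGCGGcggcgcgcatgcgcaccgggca

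The motifs searched were the GC box GGGCGG, the CCAAT box CCAAT, the E-box CACGTG and the Sox core ACAAAG. A promoter was matched by symbol for 85 of the 101 genes. The GC box was in the window of 62 of these 85 genes, or 72.9%, against 57.4% of the 9956 tested genes with a promoter and 30.5% of all 33469 promoters. It was found 3 times for Vamp2, 2 times side by side for Stxbp5, 1 time for Rab9b and not in the window of Stxbp6. The CCAAT box was in 31 of the 85, or 36.5%, against 35.4% of the tested genes and 34.0% of all promoters. The E-box was in 8, or 9.41%, against 8.22% and 5.59%, and the Sox core in 6, or 7.06%, against 11.9% and 16.3%. By direction of call, the GC box was in 24 of 31 promoters of higher genes and 7 of 8 of lower genes. A match of such letters is a description of the window and no evidence of binding.

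Among the 54 tested Rab GTPases 21 were higher in O4+ cells and 4 lower, or 38.9% and 7.41%, beside 28.8% and 17.8% of all genes. Array A measured 42 of the 54, and of all genes read from it 33.7% were higher and 15.8% lower. The rises were led by Rab33a, which in neurons acts in transport of vesicles from the Golgi into axons. Its array B ratios were 12.1, 11.8, 13.1 and 7.93 in O4+ cells, against 1.00, 0.490, 0.980, 0.809 and 0.327 in A2B5+ cells. All O4+ arrays lay far above the A2B5+ arrays, and the fitted difference was 4.06 ± 0.33, a 16.7-fold rise (adjusted p = 1.54e-05). Rab9b, a paralog of the late endosome GTPase Rab9a, had ratios of 4.22, 3.46, 2.32 and 2.74 in O4+ cells and 1.00, 0.289, 0.294, 0.454 and 0.184 in A2B5+ cells. It rose by 3.06 ± 0.43 without overlap, although A2B5+ replicate 1 lay well above the other A2B5+ arrays. Rab9a itself rose by 0.80 ± 0.15.

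Rab4a and Rab4b are GTPases of the fast recycling route from early endosomes. Rab4a had ratios of 5.58, 3.57, 4.28 and 4.85 in O4+ cells, against 0.912, 0.789, 0.911, 1.00 and 0.414 in A2B5+ cells. Rab4b had ratios of 2.54, 2.34, 2.99 and 2.50 in O4+ cells, against 0.775, 0.759, 1.00, 0.979 and 0.370 in A2B5+ cells. Both rose in every O4+ array over every A2B5+ array, Rab4a by 2.55 ± 0.26 and Rab4b by 1.82 ± 0.27, and A2B5+ replicate 5 was the lowest array for both. Of the early endosome GTPases, Rab5a rose by 1.00 ± 0.21 and Rab5b by 0.68 ± 0.12, while Rab5c (-0.05 ± 0.36), Rab22a (0.29 ± 0.21) and Rab21 (0.21 ± 0.25) were not called. The sign of Rab5c changed with the replicates used, and Rab22a was called without O4+ replicate 2 (0.52, adjusted p = 0.010). Rab11a, the GTPase of the slower recycling endosome, had a difference of 0.33 ± 0.14 (adjusted p = 0.083). Its O4+ replicate 2 lay at 0.909 and the other O4+ arrays at 1.25 to 1.31, and without that replicate the difference was 0.45 and called (adjusted p = 0.012).

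GTPases of regulated secretion gave the widest spread within a subfamily. Rab3c, found on synaptic and secretory vesicles, had ratios of 8.05, 3.24, 2.63 and 2.11 in O4+ cells, against 1.00, 0.713, 0.713, 0.755 and 0.847 in A2B5+ cells, a rise of 2.12 ± 0.34. Rab3a, the main Rab of synaptic vesicles, had ratios of 2.53, 1.08, 2.77 and 3.21 in O4+ cells, against 0.863, 0.609, 0.912, 1.00 and 0.922 in A2B5+ cells. O4+ replicate 2 stood close to the A2B5+ arrays, and the rise was 1.39 ± 0.30 on array A. The separate probe set for Rab3a on array B rose by 1.88 ± 0.35, with ratios of 4.26, 2.81, 2.66 and 1.64 in O4+ cells and 0.377 to 1.00 in A2B5+ cells.

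Rab3b had a difference of 0.16 ± 0.11 (adjusted p = 0.26), which turned to -0.01 with centred arrays. Rab3d, best known from exocrine glands and mast cells, fell by 0.69 ± 0.22, with ratios of 0.794, 0.863, 0.662 and 0.831 in O4+ cells and 1.65, 1.90, 1.01, 1.00 and 1.02 in A2B5+ cells. That call was lost without O4+ replicate 1 or 3 or A2B5+ replicate 1 or 2 (adjusted p = 0.050 to 0.076). Rab27b, which docks secretory lysosomes and vesicles, had a difference of 0.27 ± 0.11 without overlap (adjusted p = 0.070), and was called without A2B5+ replicate 5 (0.32, adjusted p = 0.035).

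For 15 pairs of close paralogs within 8 subfamilies on array A, the difference between paralogs on each array was compared between populations. A two-sided exact permutation test was used, and the pairs were chosen after their values were seen, so its p-values are descriptive. Several pairs share a gene, and the smallest p that the 126 splits allow is 0.0079. After adjustment over the 15 pairs 4 were below 0.05, and each of these had that smallest p. Rab3c and Rab3a exceeded Rab3d by 2.81 ± 0.47 and 2.08 ± 0.51, Rab3c exceeded Rab3b by 1.95 ± 0.44, and Rab4a exceeded Rab4b by 0.73 ± 0.16 (exact permutation adjusted p = 0.030 for each). Each of these genes was read from 1 probe set on array A. Probe sets of 1 gene also differed in size, such as those of Rab14 on array A (0.46 to 1.21). The test compares arrays, so it cannot tell a difference between paralogs from one between probe sets. Leaving out each replicate in turn gave 2.41 to 3.08 for Rab3c minus Rab3d, 1.81 to 2.47 for Rab3a minus Rab3d, 1.54 to 2.14 for Rab3c minus Rab3b and 0.62 to 0.83 for Rab4a minus Rab4b. Without adjustment over the pairs, the exact permutation p was then up to 0.029 for each, against 0.0079 with all replicates. Rab6a exceeded Rab6b by 1.12 ± 0.47 and Rab5a exceeded Rab5c by 1.05 ± 0.50, which did not pass (exact permutation adjusted p = 0.17 for each).

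**Figure D2:**
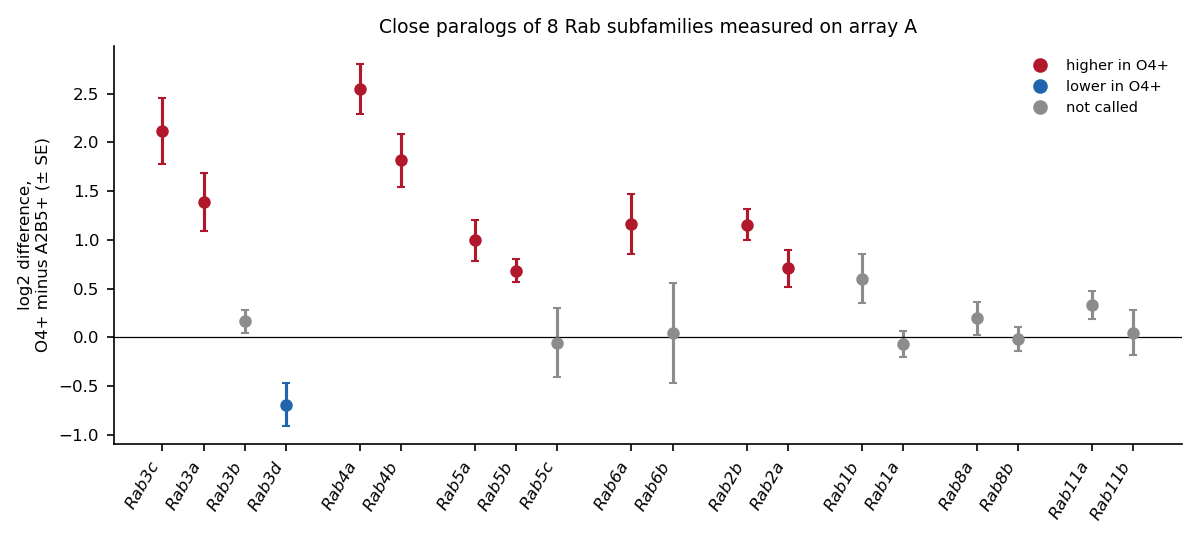
Fitted log2 differences (O4+ minus A2B5+, y axis, ± standard error, n = 4 and 5) of close Rab paralogs on array A, with red for genes higher, blue for genes lower in O4+ cells and grey for genes not called. The Rab3 subfamily spans from 2.12 for Rab3c to -0.69 for Rab3d, while Rab4a and Rab4b both lie above 1.8.

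Rab40c, a Rab with a SOCS box that has been described in rat oligodendrocytes, had ratios of 3.31, 4.19, 4.61 and 3.21 in O4+ cells, against 0.909, 0.861, 0.842, 0.824 and 1.00 in A2B5+ cells. Its replicates lay close together in each population and the rise was 2.10 ± 0.14, or 4.28-fold (adjusted p = 4.21e-06). Rab31, also described in rat oligodendrocytes and active between the Golgi and endosomes, had ratios of 0.867 to 1.04 in O4+ cells and 0.937 to 1.07 in A2B5+ cells. Its difference was -0.06 ± 0.11 (adjusted p = 0.69), and its 2 probe sets pointed in opposite directions without a call, at 0.19 ± 0.14 and -0.30 ± 0.14. Rab26 had a difference of 0.05 ± 0.14 (-0.12 with centred arrays) and Rab8a, of exocytic transport, one of 0.19 ± 0.17.

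Rabs of the Golgi and of endosome to Golgi transport were among the other rises. Rab33b, a Golgi Rab, rose by 1.32 ± 0.16, and Rab6a, of transport back to and through the Golgi, by 1.17 ± 0.31 with overlap, since O4+ replicate 2 had a ratio of 0.983 and the other O4+ arrays 2.07 to 2.78. Rab2b and Rab2a, of transport between the ER and the Golgi, rose by 1.16 ± 0.16 and 0.71 ± 0.19. Rab10, of exocytic and recycling carriers, rose by 1.24 ± 0.11 with concordant probe sets (1.20 ± 0.15 and 1.27 ± 0.19). Rab7b, of transport from late endosomes to the Golgi, rose by 1.55 ± 0.25 on array B. For 1 of its 2 probe sets every A2B5+ ratio was below 1 and the median of all 9 ratios was 0.649. That probe set passed the filter through the O4+ arrays alone, so the filter set its direction and lack of overlap. Rab7b, counted among the higher genes without overlap, rests in part on it, and the size of its rise is uncertain.

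The remaining rises among the Rabs were smaller. Rab14, of endosomes and the Golgi, rose by 0.80 ± 0.13 as the mean of 4 array A probe sets, whereas its array B probe set gave -0.03 ± 0.37. Rab34 rose by 0.73 ± 0.17, with O4+ replicate 2 at 2.08 and the other O4+ arrays at 1.27 to 1.30. Rab7a, the main GTPase of late endosomes and lysosomes, rose by 0.52 ± 0.13 and lost its call on centring (0.35, adjusted p = 0.063). Rab23, a regulator of Hedgehog signalling, rose by 0.67 ± 0.20 with overlap, and Rab25, an epithelial relative of Rab11a, by 0.47 ± 0.14, and both calls ended on centring (adjusted p = 0.084 and 0.069). The call for Rab23 was also lost with array B in place of array A (0.07) and without O4+ replicate 3 or 4 or A2B5+ replicate 2 or 3 (adjusted p = 0.052 to 0.065).

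The falls among the Rabs were few and small beside the rises. Rab35, of recycling to the plasma membrane and of exosome release in oligodendroglia, had ratios of 0.799, 0.883, 0.780 and 0.820 in O4+ cells, against 1.10, 1.04, 1.00, 1.25 and 1.38 in A2B5+ cells. It fell by 0.48 ± 0.13 without overlap (adjusted p = 0.012). Rab29, a Golgi and lysosome Rab, fell by 0.61 ± 0.16, also without overlap. Rab27a, of secretory lysosomes, fell by 1.06 ± 0.29 with overlap as the mean of 2 array B probe sets that disagreed in size. One fell by 1.99 ± 0.42, with ratios of 0.411, 0.484, 0.320 and 0.953 in O4+ cells and 1.79, 3.61, 1.00, 1.62 and 2.83 in A2B5+ cells, and the other had a difference of -0.14 ± 0.22. With no filter, Rab27a is represented by a low array A probe set and its difference is 0.30 (adjusted p = 0.074).

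Of the 9 tested regulators and effectors named after a Rab, 0 were higher and 1 was lower at a limma adjusted p under 0.05, and 0 were higher at an unadjusted p under 0.05. The called shares were 0% and 11.1%, beside 28.8% and 17.8% of all genes. Rab11fip4, which binds Rab11 on recycling endosomes, fell by 1.17 ± 0.32 with overlap, with ratios of 0.893, 0.704, 1.00 and 0.585 in O4+ cells and 2.56, 1.30, 2.81, 1.87 and 0.948 in A2B5+ cells. The fitted differences of the other 8 ranged from -0.61 to 0.47, and the median of the 9 was -0.14.

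**Figure D3:**
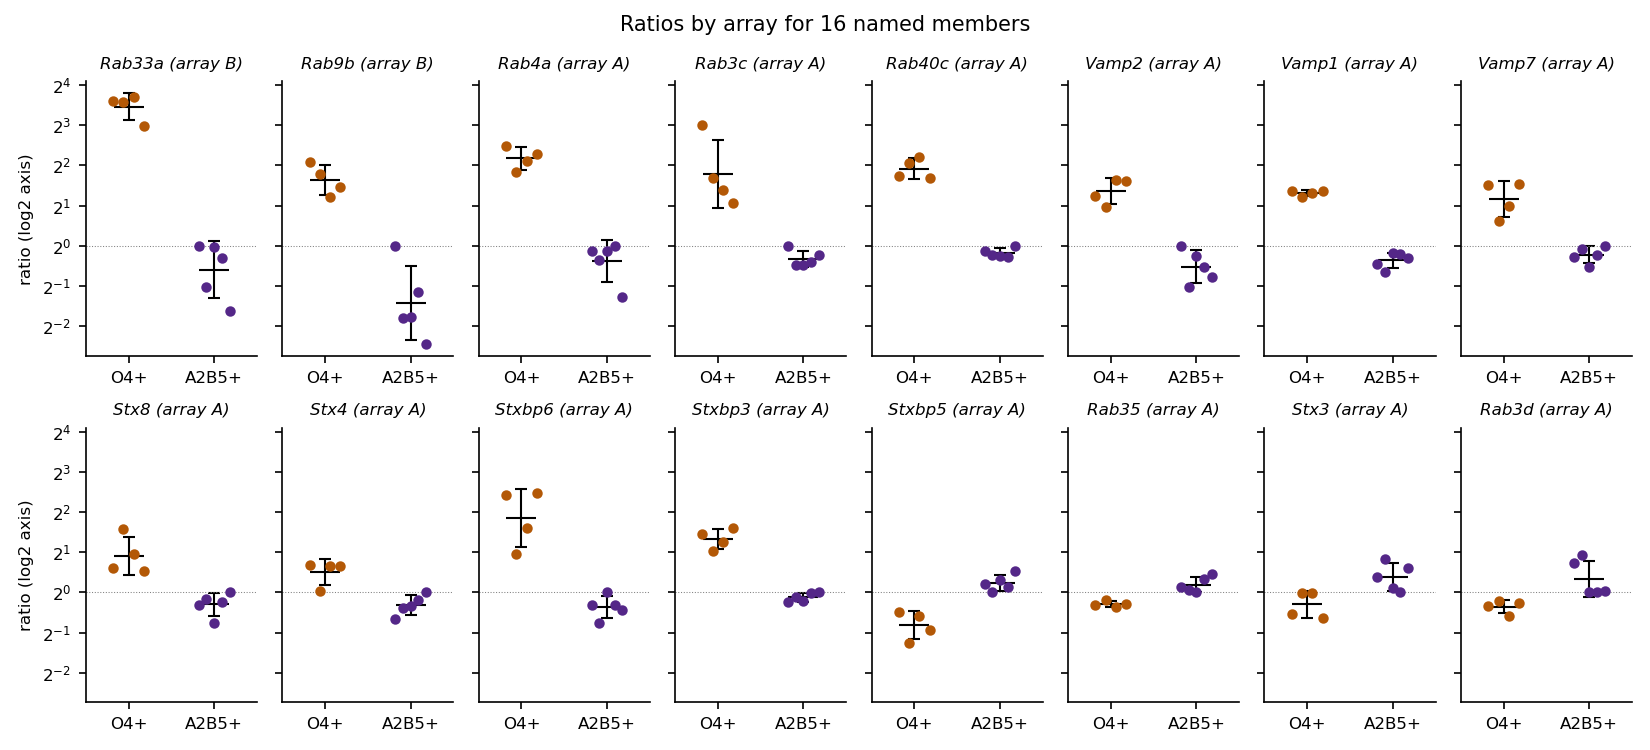
Ratios on each array (y axis, log2 scale, the authors' ratios, geometric mean where a gene has several probe sets) of 16 named genes, with O4+ arrays left of A2B5+ arrays. Points are arrays (4 O4+ and 5 A2B5+), and black bars show the mean ± SD of the log2 ratios. The 12 genes from Rab33a to Stxbp3 lie higher and the last 4, Stxbp5, Rab35, Stx3 and Rab3d, lower in every O4+ array than in every A2B5+ array.

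Of the 10 tested Vamp and Sec22 genes 4 were higher and 1 lower, or 40% and 10%, beside 28.8% and 17.8% of all genes. From array A were read 8 of the 10, and there 33.7% of all genes were higher and 15.8% lower. Vamp2, also called synaptobrevin 2 and a main Vamp of regulated exocytosis, had ratios of 2.38, 1.95, 3.10 and 3.06 in O4+ cells, against 1.00, 0.490, 0.845, 0.692 and 0.585 in A2B5+ cells. The lowest O4+ array was 1.95 and the highest A2B5+ array 1.00, and the rise was 1.88 ± 0.23, or 3.68-fold (adjusted p = 0.00017). Vamp1, a close relative of Vamp2, rose by 1.68 ± 0.13 over its 3 probe sets, whose rises differed widely in size. One of them rose by 3.71 ± 0.25, with ratios of 9.15, 6.21, 9.99 and 11.8 in O4+ cells and 0.680, 0.486, 1.00, 0.877 and 0.543 in A2B5+ cells, while the others rose by 0.70 ± 0.17 and 0.63 ± 0.17. The one at 0.70 had every A2B5+ ratio below 1 and so passed the filter through the O4+ arrays alone. The filter therefore set its direction, and its size is uncertain.

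Vamp7, the Vamp of lysosome and late endosome exocytosis, had ratios of 2.85, 1.53, 2.00 and 2.91 in O4+ cells, against 0.832, 0.951, 0.696, 0.857 and 1.00 in A2B5+ cells, a rise of 1.38 ± 0.21. Vamp3, or cellubrevin, of recycling endosomes, had ratios of 1.5, 1.00, 1.11 and 1.47 in O4+ cells and 1.17, 0.972, 0.751, 0.778 and 0.928 in A2B5+ cells. Its populations overlapped, its difference of 0.46 ± 0.18 did not pass (adjusted p = 0.057), and it passed without O4+ replicate 2 or A2B5+ replicate 1 (adjusted p = 0.031 and 0.033). Sec22b, an ER SNARE, rose by 0.50 ± 0.11 on array A and had -0.68 ± 0.34 on array B (adjusted p = 0.17). Vamp8, of late endosome and granule fusion, had a difference of -0.35 ± 0.29. Vamp5, known from muscle, fell by 1.14 ± 0.30 with overlap, with a ratio of 1.00 in O4+ replicate 2 and 0.345 to 0.548 in the other O4+ arrays, against 0.915 to 1.53 in A2B5+ cells, and lost its call with no filter (-0.43, adjusted p = 0.064). O4+ replicate 2 also had the highest mean of the microglia list among O4+ arrays, -0.07, and the part of such cells in these values was not tested.

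Of the 14 tested syntaxin, Snap and Vti1 genes 7 were higher and 2 lower, or 50% and 14.3%, beside 28.8% and 17.8% of all genes. All 14 were read from array A, where 33.7% of all genes were higher and 15.8% lower. With centred arrays 5 of the 14 were higher and 2 lower, where 18.7% and 20.4% of all genes were. Stx8, of late endosomes, rose most, by 1.21 ± 0.23, with ratios of 1.51, 2.97, 1.92 and 1.43 in O4+ cells and 0.798, 0.892, 0.593, 0.840 and 1.00 in A2B5+ cells. Stx12, of recycling endosomes, rose by 0.95 ± 0.21 and Stx6, of the trans-Golgi network and endosomes, by 0.65 ± 0.13, both without overlap. Stx4, the syntaxin of constitutive and insulin-driven exocytosis at the plasma membrane, had ratios of 1.61, 1.01, 1.57 and 1.59 in O4+ cells, against 0.633, 0.765, 0.784, 0.880 and 1.00 in A2B5+ cells. It rose by 0.82 ± 0.18, with O4+ replicate 2 just above the highest A2B5+ array.

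Stx3, also of the plasma membrane, went the other way and fell by 0.69 ± 0.21, with ratios of 0.689, 0.989, 0.997 and 0.645 in O4+ cells and 1.30, 1.78, 1.08, 1.00 and 1.53 in A2B5+ cells. The highest O4+ and the lowest A2B5+ array of Stx3 almost touched, and the call was lost without O4+ replicate 1 or 4 or A2B5+ replicate 2 (adjusted p = 0.054 to 0.068) and with no filter (-0.20). Stx1a, the syntaxin of synapses, fell by 0.71 ± 0.21 with overlap, and lost its call without O4+ replicate 2 or 3 (adjusted p = 0.055 and 0.054) and with no filter (-0.17). Stx5 of the Golgi and Stx17 of autophagosomes rose by 0.45 ± 0.14 and 0.45 ± 0.15, and both calls ended on centring (adjusted p = 0.087 and 0.11), with array B in place of array A (0.10 and 0.23) and without single replicates. These were O4+ replicates 2 and 3 and A2B5+ replicate 2 for Stx5 (adjusted p = 0.051 to 0.067), and O4+ replicates 1, 2 and 4 and A2B5+ replicates 1, 2 and 3 for Stx17 (adjusted p = 0.051 to 0.084).

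Among the Snap proteins, which complete the SNARE bundle, Snap29 rose by 0.83 ± 0.17 over its 3 probe sets. The probe sets of Snap29 rose by 1.45 ± 0.14 and 0.77 ± 0.22 or were not called (0.28 ± 0.25). Snap23, the plasma membrane Snap of non-neuronal cells, had ratios of 1.32, 1.14, 0.994 and 1.37 in O4+ cells and 0.789, 0.894, 0.605, 0.811 and 1.29 in A2B5+ cells. Its mean difference of 0.49 ± 0.21 did not pass (adjusted p = 0.075), but 1 of its 2 probe sets rose by 0.77 ± 0.19 without overlap (adjusted p = 0.0075), and the mean passed without A2B5+ replicate 5 (0.64, adjusted p = 0.013). Vti1a, a SNARE of the trans-Golgi network, had 0.52 ± 0.29 (adjusted p = 0.16) and likewise passed without A2B5+ replicate 5 (0.73, adjusted p = 0.030).

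Of the 4 tested syntaxin-binding genes 2 were higher, 1 was lower and 1 was not called, or 50% higher and 25% lower. All 4 were read from array A, where 33.7% of all genes were higher and 15.8% lower. Stxbp6, or amisyn, which carries a SNARE-like motif, had ratios of 5.31, 1.95, 3.02 and 5.57 in O4+ cells, against 0.810, 0.592, 1.00, 0.804 and 0.738 in A2B5+ cells, a rise of 2.22 ± 0.30. Its array B probe set had 0.79 ± 0.28, which was not called among single probe sets of that type (adjusted p = 0.074). Stxbp3, or Munc18c, the partner of Stx4, had ratios of 2.75, 2.05, 2.38 and 3.04 in O4+ cells, against 0.843, 0.919, 0.860, 0.982 and 1.00 in A2B5+ cells, a rise of 1.46 ± 0.14 (adjusted p = 3.63e-05). Stxbp5, or tomosyn, which occupies syntaxins and so holds back fusion, had ratios of 0.707, 0.417, 0.666 and 0.527 in O4+ cells, against 1.16, 1.00, 1.24, 1.09 and 1.44 in A2B5+ cells. It fell by 1.05 ± 0.18 without overlap (adjusted p = 0.0012). Stxbp2 had a difference of -0.48 ± 0.35 (adjusted p = 0.28), with ratios of 0.714 to 1.74 in O4+ cells and 0.925 to 2.71 in A2B5+ cells.

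Of 7 tested exocyst subunits 3 were higher in O4+ cells and 0 lower at a limma adjusted p under 0.05 (0 lower also at an unadjusted p under 0.05). These shares were 42.9% and 0%, beside 28.8% and 17.8% of all genes. Array A measured 6 of the 7, and of all genes read from it 33.7% were higher and 15.8% lower. The median difference was 0.46, with no rise of 1 or more. Exoc3, or Sec6, rose by 0.68 ± 0.13 with 3 of 3 probe sets called (0.79 ± 0.16, 0.52 ± 0.16 and 0.72 ± 0.16) and ratios of 1.26, 1.66, 1.20 and 1.29 in O4+ cells against 0.734 to 0.910 in A2B5+ cells. Exoc6, or Sec15, the subunit that binds Rab11, rose by 0.90 ± 0.21 with overlap, since O4+ replicate 2 had a ratio of 1.00 and A2B5+ replicate 2 one of 1.04. Exoc7, or Exo70, which binds the plasma membrane, rose by 0.54 ± 0.18 with overlap. The call for Exoc7 ended on centring (0.37, adjusted p = 0.12), with its most variable probe set (adjusted p = 0.28) and without any 1 of O4+ replicates 2 or 3 or A2B5+ replicates 1, 3 or 4 (adjusted p = 0.064 to 0.079). The other 4 subunits had differences of -0.18 to 0.46.

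Replicates were not equally placed in these rises. Of the 34 array A genes that were higher, O4+ replicate 2 was the lowest of the O4+ arrays for 19 and the highest for 9, and each of the other O4+ arrays was the lowest for 4 to 6. Without O4+ replicate 2, 40 of the 98 genes were higher and 10 lower. The mean log2 ratio over all 80 array A genes was 0.29 to 0.40 on the O4+ arrays, with replicate 2 at 0.30, and -0.16 to -0.03 on the A2B5+ arrays.

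Of the 98 tested genes 38 had several tested probe sets. For 10 of them every probe set was called the same way, for 14 some were called and some not, and for 0 were probe sets called in opposite directions by limma. Fitted differences of both signs occurred in 8. Of 15 genes measured on both array types, 8 were higher on array A, and of these 3 were also higher when array B rows stood for the gene, namely Rab3a, Stxbp6 and Rab2a. Rab2a rose by 0.71 ± 0.19 on array A and, on array B, by 0.65 ± 0.22, with overlap and without a call among single probe sets (adjusted p = 0.060). Rab20 was called on array B alone, at -1.01 ± 0.36 (adjusted p = 0.047, or 0.084 among single probe sets), with 0.18 ± 0.15 on array A.

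**Figure D4:**
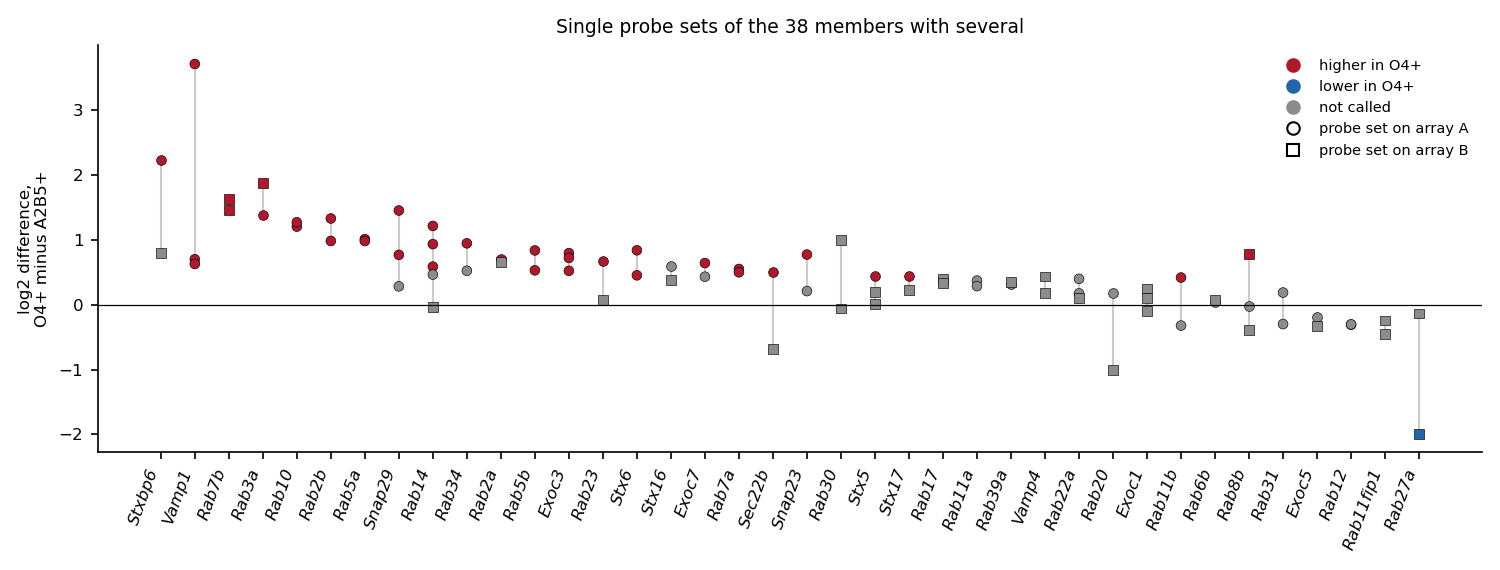
Fitted log2 differences (O4+ minus A2B5+, y axis) of the single probe sets of 38 genes with several, as circles for array A and squares for array B, joined by a grey line per gene and coloured by call. The probe sets of Vamp1 run from 0.63 to 3.71 and those of Rab27a from -0.14 to -1.99, whereas those of Rab10, Rab5a and Rab7a lie close together.

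Other genes of the same steps were read from lists chosen by function. The list of SNARE cycle partners took in genes that unwind, chaperone or join SNARE bundles, and also adaptors such as Tom1l1. Of its 30 tested genes 14 were higher and 3 lower, or 46.7% and 10%, beside 28.8% and 17.8% of all genes. From array A were read 26 of the 30, and there 33.7% of all genes were higher and 15.8% lower. The median difference of the 30 was 0.45. With centred arrays 9 of them were higher and 5 lower, where 18.7% and 20.4% of all genes were. The Golgi SNARE Bet1l rose by 1.39 ± 0.14, and the Sec1/Munc18 proteins Vps45, Vps33a and Scfd1, which serve endosomal, lysosomal and ER to Golgi SNAREs, by 1.04 ± 0.16, 0.97 ± 0.16 and 0.96 ± 0.16. The rise of Vps33a was not seen with array B in place of array A (0.09, adjusted p = 0.69). Snap25, the Snap of synapses and also 1 of the neuron markers, fell by 1.83 ± 0.61 with overlap, and lost its call without O4+ replicate 1, 3 or 4 or A2B5+ replicate 3 or 4 (adjusted p = 0.058 to 0.076). Tom1l1, an endosomal adaptor, fell by 2.09 ± 0.41.

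Of 35 tested synaptotagmins and Rab effectors 18 were higher and 3 lower, or 51.4% and 8.57%, beside 28.8% and 17.8% of all genes. Array A measured 23 of the 35, and of all genes read from it 33.7% were higher. The median difference was 0.46. With centred arrays 12 were higher and 3 lower, where 18.7% and 20.4% of all genes were. Sytl2, a Rab27 effector, rose by 3.97 ± 0.25, Ehd3 of recycling endosomes by 2.71 ± 0.38, Micall1, an organiser of recycling tubules, by 2.52 ± 0.32 and the synaptotagmin Syt3 by 1.24 ± 0.24. Dysf, of plasma membrane repair, fell by 2.05 ± 0.31 and Syt4 by 1.07 ± 0.21, the call for Syt4 being lost with no filter (-0.35, adjusted p = 0.052). The 49 tested regulators of the Rab cycle had shares near those of all genes, with 13 higher, or 26.5%, and 8 lower, or 16.3%, and a median difference of 0.11 (10 and 10 with centred arrays). The DENN-domain protein Dennd5a rose by 2.29 ± 0.28, and the TBC-domain genes Evi5l, Tbc1d10b and Tbc1d7 by 2.28 ± 0.33, 1.42 ± 0.30 and 1.32 ± 0.15. Tbc1d4, known as a brake on Rab10 in insulin-driven transport, fell by 1.85 ± 0.26 and Dennd3, an activator of Rab12, by 1.81 ± 0.21.

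**Figure D5:**
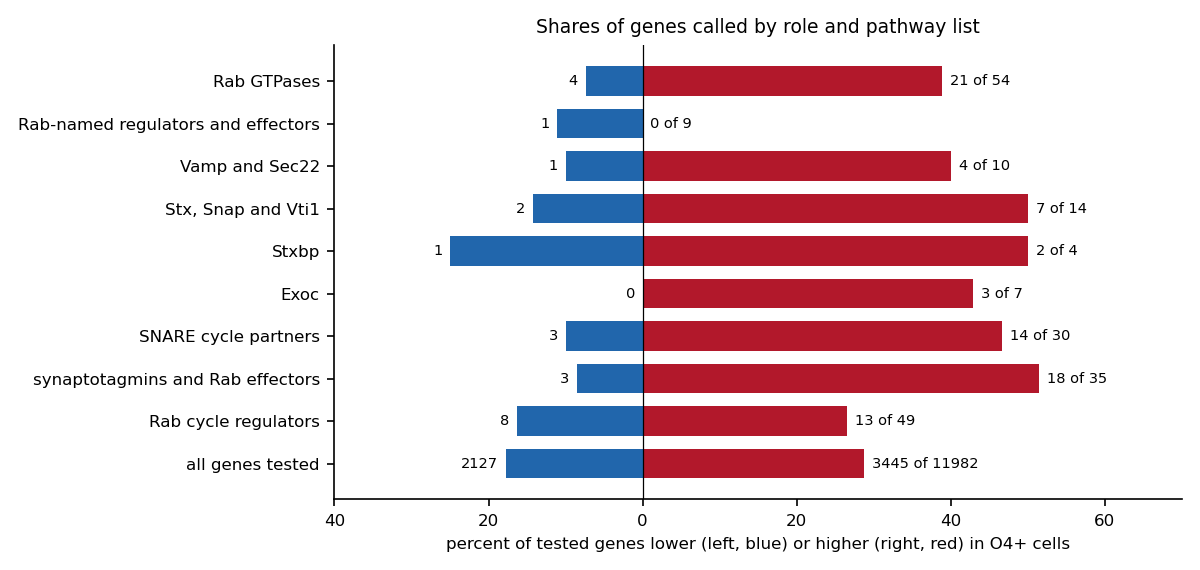
Percent of tested genes called lower (blue, to the left) or higher (red, to the right) in O4+ cells at a limma adjusted p under 0.05, by role, for 3 pathway lists and for all genes, with counts beside the bars. All genes stand at 28.8% higher and 17.8% lower, the Rab GTPases at 38.9% higher and 7.41% lower, and the regulators and effectors named after a Rab at 0 higher.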

How the data were processed

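Expression of 4 O4+ and 5 A2B5+ replicates was read from 2 tables, 1 per array type, that the authors deposited as linear ratios. The submitters' processing notes name GCRMA, with no version, and the sources used here do not say how it led to ratios. In the files each probe set had a median over its 9 arrays of exactly 1 or less. The number of arrays limits the precision.

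Samples were grouped by their titles. Gene names came from the platform annotation (12754 array A and 7530 array B probe sets matched RefSeq by gene identifier, with 0 symbols changed), control probe sets were left out, and the mean log2 ratio of tested probe sets stood for a gene, with array A before array B. Differences are O4+ minus A2B5+ and were tested two-sided by eBayes after lmFit (limma 3.58.1, R 4.3.3), adjusted by Benjamini-Hochberg over all 11982 genes, or over the probe sets of 1 array type for single probe sets. The fit over genes was checked on simulated data. P-values measure the spread between replicates.

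The genes, lists and tests were chosen with earlier results of these data known. Named are, without overlap between populations, the 6 largest rises and falls of the Rab GTPases and the 3 largest of each other role, and a list of known trafficking genes, some of which were not analysed here. The other called genes, Rab3b, Rab5c, Rab6b, Rab12, Rab20, Rab21, Rab22a, the paralog tests and the named pathway genes were chosen after their values were seen. Same-numbered O4+ and A2B5+ samples correlated at 0.02 to 0.31 on array A and -0.20 to 0.24 on array B in their deviations from the population means, so numbers were not taken as pairs. Alternatives covered scaling, filters, the choice of probe set and array type, weights, spread and single replicates.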

Additional observations from a re-analysis of the deposited data

Results flagged for a closer look

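For 7 of 126 sets of replicates of 1 population (63 named genes), 1 array lay far from the rest by Dixon's criterion, where chance alone gives about 1 in 20. All 7 involve O4+ replicate 2 or A2B5+ replicate 5 on array A. In O4+ replicate 2, Rab11a had a ratio of 0.909 against 1.25 to 1.31 in the other O4+ arrays, and Stx4 one of 1.01 (1.015 before rounding) against 1.57 to 1.61. In the same array Vti1a had 1.79 against 1.00 to 1.05, and Rab34 had 2.08 against 1.27 to 1.30. In A2B5+ replicate 5, Rab4a had a ratio of 0.414 against 0.789 to 1.00 in the other A2B5+ arrays, Rab4b had 0.370 against 0.759 to 1.00, and Rab8a had 1.30 against 0.927 to 1.00. Among the A2B5+ arrays of type A, replicate 5 also had the lowest mean log2 ratio of the progenitor (-1.0), myelin (-1.0), neuron (-0.27) and astrocyte (-0.05) markers. Of the progenitor markers, Sox10 had -3.75 and Olig1 -1.85 there, and Pdgfra, Cspg4, Cspg5 and Ptprz1 had -0.44 to 0.12. Replicate 5 was not the lowest for the microglia (0.69), endothelial and mural (0.24) or dividing cell (0.45) markers. The part of these cell types in the flagged values was not tested.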

How the results depend on the processing

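The count of higher genes was 31 to 48 and that of lower genes 5 to 10 over the settings that keep all replicates, against 37 and 9. The 5 lower genes came with no filter, where low array A probe sets enter the means and 101 genes are tested. Leaving out each replicate in turn gave 34 to 43 higher and 7 to 10 lower genes. With the replicate number as a block, 41 were higher and 9 lower. The labels do not settle whether same-numbered O4+ and A2B5+ samples share a litter. Of 1458 values of 81 named genes under these settings 1372 kept their direction and their side of the threshold, 47 lost a call, 18 gained one and 21 changed sign. The sign changes were those of Rab26 (-0.12 with centred arrays, -0.016 with array weights and -0.023 without A2B5+ replicate 2, with 0.10 at most when a replicate was left out), Rab3b (-0.0057 with centred arrays), Sec22b, Rab14 and Rab20 (-0.68, -0.034 and -1.01 with array B before array A) and Rab27a (0.30 with no filter). Sec22b, Rab14, Rab20 and Rab27a rest there on other probe sets. The uncalled Rab5c and Rab6b account for the other 13 sign changes and have no settled direction. Rab5c had 0.24 with array weights, 0.082 with the replicate block and -0.35 to 0.091 when a replicate was left out. Rab6b had -0.12 with centred arrays, -0.13 with array weights, -0.40 with the replicate block and -0.40 to 0.33 when a replicate was left out. For these, Rab26 and Rab3b the cause was not tested. Array weights gained calls for Rab27b, Rab11a, Vamp3, Snap23 and Vti1a. Signal over background is not known from ratios, so no limit of detection is given.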
